A study of Mus musculus with 18 samples.

Results

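The comparison described here is that between male NOD.H-2b and male BALB/c mice in the lacrimal gland (LG) at 2 months (2M), the earliest of the ages profiled. It was chosen by strain and age alone and holds 6 of the 18 bulk RNA-seq libraries of the series, 3 per strain, each from 1 LG of 1 mouse. The mice labelled NOD.B10Sn-H2b/J, called NOD.H-2b here, carry the genome of the diabetes-prone NOD strain with the H2b haplotype of the major histocompatibility complex (MHC) taken from a C57BL/10 background, do not become diabetic, and are used as a model of Sjögren's syndrome. BALB/cJ mice, called BALB/c, are an unrelated inbred strain taken as controls for their similar body weight and LG size, with no treatment in either strain. Since the strains differ throughout the genome, inflammation and the remaining genetic background cannot be told apart in any value given here. The 4M and 6M mice of both strains enter the last comparison only.

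The LG makes the watery layer of tears. Its acinar cells secrete proteins and fluid when nerve signals reach muscarinic and adrenergic receptors, ducts carry and modify the fluid, and myoepithelial cells squeeze the acini. In Sjögren's syndrome lymphocytes gather around ducts and vessels, plasma cells and macrophages spread through the tissue, and tear secretion is lost. Interferons, the cytokines that switch on antiviral and antigen presentation genes in most cell types, leave a strong trace in such glands.

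Totals per library lay between 56840654 and 63309172 counts at 2M. Levels are given as CPM, the read count of a gene relative to the TMM-scaled total of its library, in the order of mice 1, 2 and 3 of each strain. A gene was called upregulated (higher in NOD.H-2b) or downregulated when the quasi-likelihood test of edgeR gave an FDR under 0.05 and the fold was 2 or more, and higher or lower when only the FDR passed. Fold changes are log2 values with their standard error (SE), and every test has n = 3 mice per strain. Of 17200 genes tested, 2070 (12.0%) were upregulated and 647 (3.76%) downregulated, and the median log2 fold change of all genes was 0.01. Without regard to fold, 3871 genes (22.5%) had higher levels in NOD.H-2b, and 2966 (17.2%) had lower levels. All 3 NOD.H-2b mice lay above all 3 BALB/c mice for 28.1% of genes and below them for 24.1%. A separate level in every mouse was therefore common, and members of the gene lists are read against these shares.

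The MHC itself served as a check of the labels. H2-Ea-ps, the name in the annotation for the alpha chain of the class II molecule I-E at chr17:34341959-34344645 (GRCm38), is known to be silent in mice of the H2b haplotype. It had 12.3, 12.9 and 10.8 CPM in BALB/c and 0, 0 and 0 CPM in NOD.H-2b, so that no count at all was found in NOD.H-2b. With 3 counts as the floor of detection in each mouse, the NOD.H-2b level was lower by at least 253-fold. The class I genes H2-Q1 and H2-Q10 were also downregulated. H2-Q10 had 2.87, 2.69 and 2.43 CPM in BALB/c and 0, 0.0306 and 0.111 CPM in NOD.H-2b (log2 fold change -5.75 ± 0.5, adjusted p = 1.14e-05). H2-Q1 had 2.33, 1.78 and 2.04 CPM in BALB/c and 0.0163, 0.0306 and 0 CPM in NOD.H-2b (adjusted p = 8.18e-07), with at most 2 counts in any NOD.H-2b mouse. In the stretch of chromosome 17 from H2-K1 to H2-M2 (chr17:33996017-37483552), 38 of 132 tested genes were upregulated (28.8%) and 11 downregulated (8.33%), against 11.1% and 5.1% of the 667 genes tested on the rest of that chromosome. The H2 genes include near-identical copies between which reads can be split, and alleles of this region differ between the strains, so single H2 values are uncertain.

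The 3 NOD.H-2b glands differed among themselves in how much lymphocyte RNA they held. Ms4a1, which encodes CD20 of B cells, had 0, 3 and 0 counts in the BALB/c mice and 4, 318 and 107 counts in NOD.H-2b mice 1, 2 and 3, and Pax5, the B cell identity factor, had 1, 2 and 0 against 1, 290 and 84. Mouse 1 was thus at the level of the controls for these B cell genes, and mouse 2 was highest. With enough counts in only 2 mice, both genes fell under the filter on low counts and were not tested. Among all 2070 upregulated genes, 57.7% were lowest in mouse 1, with a median ratio of mouse 1 to mouse 2 of 0.784. That ratio was 0.123 over the 7 upregulated genes of the B cell list, 0.292 over the 26 of the T cell list and 0.367 over the 11 of the plasma cell list, but 0.885 over the 23 of the macrophage list and 0.761 over the 31 of the type I interferon list. Mouse 1 had 56840654 counts and mouse 2 had 62057758, so depth differed far less than these genes did. Counts of the lymphocyte lists are therefore given with and without mouse 1. Mouse 1 was lowest for most of their upregulated genes, so leaving it out widens the difference. Leaving it out also lets genes pass the filter through the other NOD.H-2b mice alone. Counts without mouse 1 are therefore descriptions and add no support. In bulk RNA, more cells of a type and more RNA per cell cannot be told apart.

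**Figure D1:**
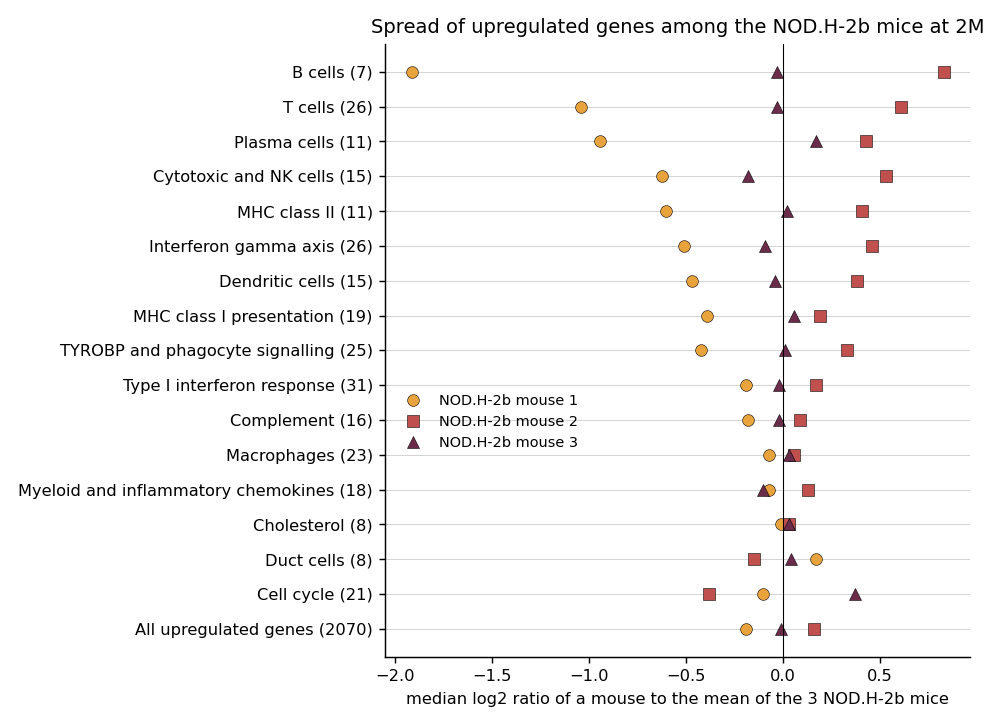
Spread among the 3 NOD.H-2b mice at 2M. For each list (number of upregulated members in brackets) the points give the median over those members of the log2 ratio of 1 mouse to the mean of the 3, with 0.1 CPM added. Lymphocyte lists spread from -1.91 (B cells, mouse 1) to 0.83 (B cells, mouse 2), while the macrophage list stays between -0.07 and 0.06.

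T cell genes were upregulated almost without exception, against 12.0% of all genes. Of 27 tested members of the T cell list 26 were upregulated, none was lower, and the median log2 fold change was 4.64 (4.35 with genes at the floor set to it). Cd3e, a chain of the T cell receptor complex, had 0.149, 0.122 and 0 CPM in BALB/c and 1.35, 5.16 and 3.48 CPM in NOD.H-2b (log2 fold change 5.2 ± 0.86, adjusted p = 0.00468). Cd4, which marks helper T cells, had 0.279, 0.0699 and 0.0685 CPM in BALB/c and 3, 9.55 and 6.91 CPM in NOD.H-2b (log2 fold change 5.55 ± 0.73, adjusted p = 0.00234). Every NOD.H-2b mouse was above every BALB/c mouse for both genes, with mouse 1 lowest and mouse 2 highest. Cd8a of cytotoxic T cells had 0.0372, 0.035 and 0 CPM in BALB/c and 0.522, 1.99 and 0.634 CPM in NOD.H-2b (adjusted p = 0.000956), with at most 2 counts in a BALB/c mouse. The largest fitted changes in the list belonged to Cd3d, Cd6, Themis and Cd5, T cell signalling genes whose counts were between 0 and 2 in every BALB/c mouse, so no fold is given for them. Thy1, the member with the highest level, had 3.33, 2.99 and 3.08 CPM in BALB/c and 4.47, 6.44 and 6.34 CPM in NOD.H-2b and rose by less than 2-fold (log2 fold change 0.88 ± 0.15, adjusted p = 0.000906). All 26 upregulated members were lowest in mouse 1, and none overlapped with BALB/c. Members with hardly any BALB/c counts, such as Cd3d and Cd6, entered the test only through their NOD.H-2b reads. For them a higher level without overlap was set by the filter, so these counts are descriptions and add no support. The same limit applies to such members of the T cell subset, cytotoxic and B cell lists below. Without mouse 1 all 28 members were tested and 28 were higher. The added member, Cd28, had 4, 18 and 12 counts in NOD.H-2b and none in BALB/c, so it entered through NOD.H-2b alone.

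Of the 18 tested members of the T cell subset list 15 were upregulated, at low levels. Without mouse 1 more members passed the filter, and 18 were higher. The 15 included genes of regulatory, exhausted and innate-like T cells and also the helper subset genes Tbx21, Gata3, Cxcr3 and Ccr6. Foxp3, the factor that defines regulatory T cells, had 0, 0.035 and 0.0342 CPM in BALB/c and 0.163, 2.04 and 1.2 CPM in NOD.H-2b (adjusted p = 0.0125). Tigit, an inhibitory receptor, had 0, 0.0175 and 0 CPM in BALB/c and 0.294, 1.59 and 1.35 CPM in NOD.H-2b (adjusted p = 0.000687). Lag3, another inhibitory receptor, and Trdc, the constant region of the delta chain, had at most 1 count in a BALB/c mouse and between 0.212 and 1.59 CPM in NOD.H-2b. Ifng had 2, 7 and 0 counts in the NOD.H-2b mice and none in BALB/c, and Il17a had no count in any mouse, so the cytokines themselves were below what this depth can show. Foxp3 did not pass without BALB/c mouse 1, 2 or 3 (adjusted p = 0.051, 0.0589 and 0.0681).

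Cytotoxic and natural killer (NK) cell genes followed, with 15 of 16 upregulated and none lower, and 16 were higher without mouse 1. Il2rb, the interleukin-2 receptor chain of NK and activated T cells, had 0.521, 0.367 and 0.496 CPM in BALB/c and 4.22, 12.2 and 8.93 CPM in NOD.H-2b (log2 fold change 4.19 ± 0.5, adjusted p = 0.00131). Prf1, which encodes the pore protein perforin, had 0, 0.0175 and 0 CPM in BALB/c and 0.554, 1.5 and 0.649 CPM in NOD.H-2b (adjusted p = 6.08e-05), and Gzmk, a granzyme, had no count in BALB/c, so that NOD.H-2b exceeded it by at least 4.75-fold. Klra8, the activating NK receptor Ly49H, had 0, 0 and 0 CPM in BALB/c and 1.09, 0.918 and 0.713 CPM in NOD.H-2b, at least 17.1-fold higher, with its highest value in mouse 1. The Klra genes form a family whose members vary in number between strains, which limits this value. Gzmb, the granzyme B gene, was also highest in mouse 1 (log2 fold change 3.32 ± 0.83, adjusted p = 0.0077). Itgal, the leukocyte integrin LFA-1 alpha chain, had 0.708, 0.839 and 0.821 CPM in BALB/c and 5.07, 15.5 and 10.4 CPM in NOD.H-2b (log2 fold change 3.7 ± 0.51, adjusted p = 0.00327).

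**Figure D2:**
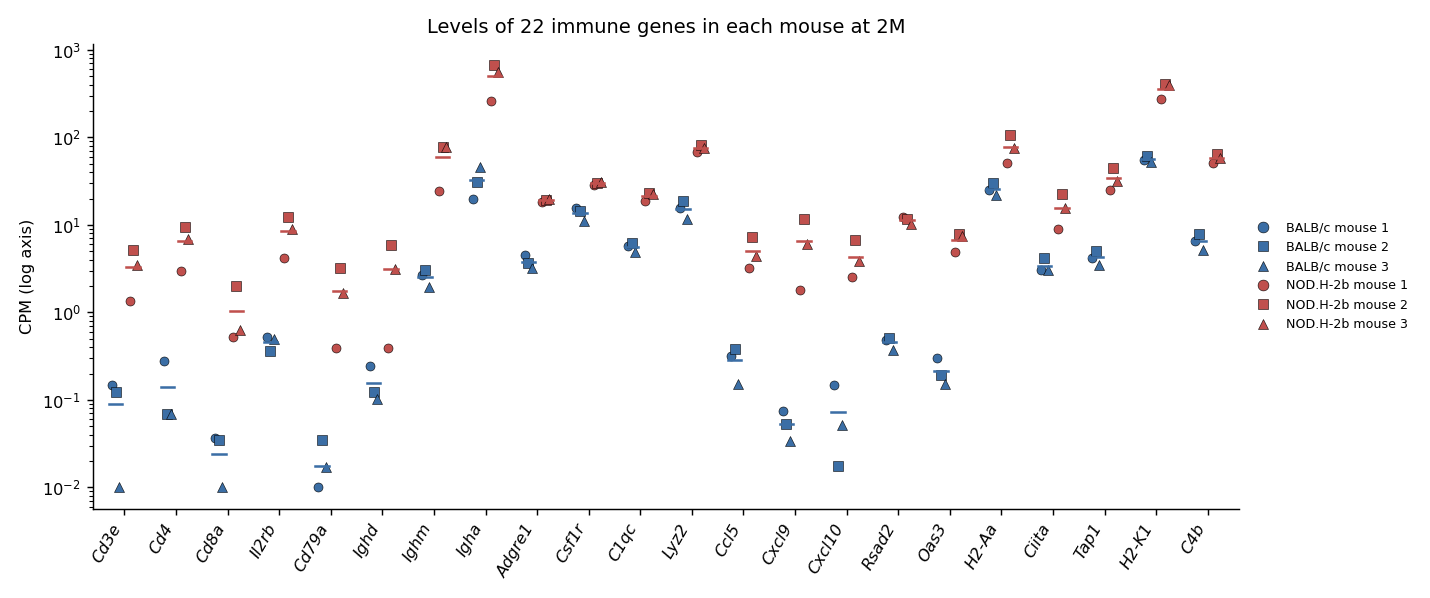
CPM (log axis) of 22 immune genes in each of the 6 mice at 2M, BALB/c in blue and NOD.H-2b in red, with symbols for mice 1 to 3 and a line at the mean of 3. Values of 0 are drawn at 0.01. T cell, B cell and Cxcl9 values of NOD.H-2b mouse 1 lie well under those of mouse 2, while macrophage genes, Rsad2 and Oas3 lie close together in the 3 NOD.H-2b mice.

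B cell genes depended on the mouse. Of the 11 members that could be tested 7 were upregulated and none was lower (median log2 fold change 4.12). Without mouse 1 more members passed the filter, and 18 were higher. Cd79a, a chain of the B cell receptor complex, had 0, 0.035 and 0.0171 CPM in BALB/c and 0.391, 3.18 and 1.68 CPM in NOD.H-2b, and Cd79b had 0.0372, 0.0524 and 0.0171 CPM in BALB/c and 0.179, 3.54 and 1.81 CPM in NOD.H-2b (adjusted p = 0.00544 and 0.0287), both with at most 3 counts in a BALB/c mouse. Ighd, the IgD heavy chain of naive B cells, had 0.242, 0.122 and 0.103 CPM in BALB/c and 0.391, 5.83 and 3.17 CPM in NOD.H-2b (log2 fold change 4.33 ± 1.2, adjusted p = 0.0448), with mouse 1 close to the highest BALB/c mouse. Bank1, a B cell scaffold protein, had 0.317, 0.105 and 0.137 CPM in BALB/c and 0.326, 5.19 and 2.34 CPM in NOD.H-2b and did not pass the test (adjusted p = 0.0625). Mouse 2 was highest for each of these genes. Ralgps2 had 14.4, 14.6 and 13 CPM in BALB/c and 52.3, 44.4 and 41.7 CPM in NOD.H-2b (log2 fold change 1.72 ± 0.089, adjusted p = 1.73e-07), with mouse 1 highest, unlike the other members. Cr2, the complement receptor of mature B and follicular dendritic cells, had 1, 4 and 0 counts in BALB/c and 2, 243 and 77 in NOD.H-2b, and Cxcr5, the homing receptor for follicles, had 1, 0 and 0 against 2, 103 and 40. Bcl6, a factor of germinal centre B cells, did not pass (log2 fold change -0.13 ± 0.72, adjusted p = 0.912). Cd79b did not pass without BALB/c mouse 1, 2 or 3 or without NOD.H-2b mouse 3 (adjusted p = 0.099, 0.0981, 0.12 and 0.0611). Ighd did not pass without BALB/c mouse 1, 2 or 3 or without NOD.H-2b mouse 2 or 3 (adjusted p = 0.112, 0.144, 0.154, 0.0579 and 0.0886). Bank1 passed without NOD.H-2b mouse 1 or in the Wald test of DESeq2 (adjusted p = 0.000126 and 0.00166).

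Several immunoglobulin genes, Igha, Ighm and Igkc among them, were higher in all 3 NOD.H-2b mice, mouse 1 included. Ighg3 was not, with 0, 70 and 109 counts in NOD.H-2b and none in BALB/c. Igha, the heavy chain of the IgA that is secreted into tears, had 19.6, 30.8 and 46.4 CPM in BALB/c and 263, 671 and 559 CPM in NOD.H-2b (log2 fold change 3.95 ± 0.57, adjusted p = 0.00753). Jchain, which links IgA dimers, had 4.41, 9.65 and 12 CPM in BALB/c and 57.7, 157 and 117 CPM in NOD.H-2b (log2 fold change 3.67 ± 0.6, adjusted p = 0.0111). IgM transcripts of Ighm had 2.7, 3.08 and 1.93 CPM in BALB/c and 24.3, 78.4 and 76.9 CPM in NOD.H-2b (log2 fold change 4.54 ± 0.65, adjusted p = 0.00717). The lowest NOD.H-2b mouse was above the highest BALB/c mouse for all 3 genes. Ighg2b and Ighg2c had at most 1 and 4 counts in a BALB/c mouse and 5.94, 17.4 and 9.11 and 1.42, 7.32 and 17.8 CPM in NOD.H-2b. These heavy chain alleles differ between strains, so that their BALB/c reads may be lost or placed on another copy. Ighg1 had 0.0931, 1.85 and 0.0856 CPM in BALB/c and 1.71, 7.16 and 11.8 CPM in NOD.H-2b and did not pass (adjusted p = 0.134). In all, 11 of 19 tested members of the plasma cell list were upregulated and 2, Derl3 and Edem2, were lower. With the FDR alone 12 were higher, and 15 without mouse 1. Irf4, the plasma cell factor, was upregulated (log2 fold change 2.57 ± 0.4, adjusted p = 0.00172). Xbp1, which acinar cells also express, had 371, 357 and 372 CPM in BALB/c and 344, 319 and 401 CPM in NOD.H-2b (log2 fold change -0.05 ± 0.075, adjusted p = 0.656). Among antibody variable segments, 87 of 110 tested Igk, Igl or Igh V genes were upregulated and 3 downregulated, against 12.0% and 3.76% of all genes. A segment nearly absent from BALB/c enters the test only through its NOD.H-2b reads, so this count is a description. Igkv4-86 (0.0745, 0 and 0 CPM in BALB/c and 7.52, 15.4 and 25.1 CPM in NOD.H-2b) and Ighv4-1 (0.0372, 0.035 and 0.0685 CPM in BALB/c and 7.63, 17.3 and 24 CPM in NOD.H-2b) were among the 10 largest increases of abundant genes and Igkv14-111 (22.3, 19.1 and 25.6 CPM in BALB/c and 0.0652, 0.582 and 0 CPM in NOD.H-2b) among the 10 largest decreases. Jchain did not pass without BALB/c mouse 2 (adjusted p = 0.0507). Ighg2c did not pass without BALB/c mouse 1, 2 or 3 or without NOD.H-2b mouse 2 (adjusted p = 0.0957, 0.0918, 0.104 and 0.071). Ighg1 passed in the Wald test of DESeq2 (adjusted p = 0.0493). Edem2 did not pass without BALB/c mouse 1, 2 or 3 or without NOD.H-2b mouse 1 or 2 (adjusted p = 0.0623, 0.119, 0.102, 0.0706 and 0.0636). Xbp1 passed without NOD.H-2b mouse 3 (adjusted p = 0.0359). Igkv4-86 did not pass without BALB/c mouse 1 (adjusted p = 0.0525).

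Macrophage genes were raised to nearly the same level in all 3 NOD.H-2b mice. Of 27 tested members 23 were upregulated, 2 more were higher, and the median log2 fold change was 2.05. Adgre1, which encodes the macrophage protein F4/80, had 4.51, 3.71 and 3.2 CPM in BALB/c and 18.4, 19.5 and 19.8 CPM in NOD.H-2b (log2 fold change 2.34 ± 0.11, adjusted p = 4.04e-08). Csf1r, the receptor for the macrophage growth factor, had 15.5, 14.6 and 11 CPM in BALB/c and 28.7, 30.2 and 30.7 CPM in NOD.H-2b (log2 fold change 1.13 ± 0.11, adjusted p = 6.48e-05). Lyz2, the myeloid lysozyme, had 15.8, 18.7 and 11.6 CPM in BALB/c and 67.7, 82.1 and 75.8 CPM in NOD.H-2b (log2 fold change 2.29 ± 0.19, adjusted p = 0.000362). None of these overlapped between the strains. Fcgr1, the high-affinity Fc receptor, had the largest change of the list (0.559, 0.227 and 0.24 CPM in BALB/c and 5.58, 7.25 and 6.4 CPM in NOD.H-2b, log2 fold change 4.24 ± 0.28, adjusted p = 1.69e-06), followed by Ccl8 (log2 fold change 3.37 ± 0.33, adjusted p = 0.000679) and Ms4a7 (log2 fold change 2.89 ± 0.22, adjusted p = 2.65e-06). Apoe, the member with the highest level, had 48.4, 52.8 and 39.7 CPM in BALB/c and 130, 112 and 126 CPM in NOD.H-2b (log2 fold change 1.38 ± 0.11, adjusted p = 5.56e-05). Cd163 and Itgam did not pass the test. Without mouse 1, 24 members were higher.

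Tyrobp, the adaptor that carries signals of Trem2 and other myeloid receptors, had 1.84, 1.42 and 1.71 CPM in BALB/c and 5.85, 8.17 and 7.25 CPM in NOD.H-2b (log2 fold change 2.1 ± 0.16, adjusted p = 2.11e-06). The list around it had 25 of 32 tested members upregulated and 1 downregulated, against 12.0% and 3.76% of all genes, with a median log2 fold change of 2.24. Unlike the macrophage list, 23 of these 25 were lowest in mouse 1. Their median ratio of mouse 1 to mouse 2 was 0.596, against 0.885 for the macrophage list. Rac2, a small GTPase of the phagocyte oxidase, had 0.689, 0.909 and 0.616 CPM in BALB/c and 5.4, 14.6 and 10.7 CPM in NOD.H-2b (log2 fold change 3.79 ± 0.46, adjusted p = 0.00177). The adaptor Lcp2 had 0.652, 0.42 and 0.24 CPM in BALB/c and 3.95, 7.13 and 5.76 CPM in NOD.H-2b (log2 fold change 3.69 ± 0.35, adjusted p = 5.71e-05). Itgax, the integrin CD11c of dendritic cells and activated macrophages, had 0.54, 0.891 and 0.531 CPM in BALB/c and 6.12, 8.4 and 6.18 CPM in NOD.H-2b (log2 fold change 3.39 ± 0.22, adjusted p = 7.6e-07).

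Dendritic cell genes were upregulated for 15 of 23 members, against 12.0% of all genes. Ccr7, the receptor that leads dendritic and T cells to lymph nodes, had 0.149, 0.0699 and 0.0685 CPM in BALB/c and 1.92, 3.54 and 2.63 CPM in NOD.H-2b (log2 fold change 4.8 ± 0.37, adjusted p = 2.11e-06). The chemokine Ccl22 had 0.112, 0.035 and 0.137 CPM in BALB/c and 1.32, 2.39 and 1.03 CPM in NOD.H-2b (log2 fold change 4.03 ± 0.48, adjusted p = 6.97e-05). Siglech of plasmacytoid dendritic cells had 1.55, 1.56 and 1.11 CPM in BALB/c and 1.32, 8.05 and 4.42 CPM in NOD.H-2b, with mouse 1 inside the BALB/c range, and did not pass (adjusted p = 0.122). Granulocytes left no such trace. Only 3 of 15 neutrophil genes had enough counts to be tested, and S100a8 and S100a9 had at most 4 counts in any mouse. Csf3r, which macrophages can also express, was the only upregulated member (log2 fold change 2.46 ± 0.28, adjusted p = 3.6e-05), and the decoy receptor gene Il1r2 was downregulated (log2 fold change -1.02 ± 0.17, adjusted p = 0.000624). Of 7 tested mast cell genes Kit alone was upregulated (log2 fold change 1.01 ± 0.068, adjusted p = 6.45e-07). Kit is expressed by epithelial progenitors of glands as well. Siglech passed without NOD.H-2b mouse 1 or in the Wald test of DESeq2 (adjusted p = 0.000144 and 0.0418).

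Chemokines of inflammation were upregulated for 18 of 27 tested members, with Ccl24 alone downregulated at low level (0.428, 0.594 and 0.616 CPM in BALB/c and 0.179, 0.122 and 0.143 CPM in NOD.H-2b, log2 fold change -1.87 ± 0.38, adjusted p = 0.00228). Ccl5, which attracts T cells and monocytes, had 0.317, 0.385 and 0.154 CPM in BALB/c and 3.21, 7.3 and 4.43 CPM in NOD.H-2b (log2 fold change 4.12 ± 0.42, adjusted p = 0.000133). Ccl20, the ligand of CCR6, had no count in BALB/c and 0.489, 0.796 and 0.855 CPM in NOD.H-2b, at least 13.4-fold higher. Of 12 tested lymphoid chemokines and organisers 4 were upregulated, and 6 were higher, or 11 without mouse 1. Cxcl13, the chemokine of B cell follicles, had 0.0931, 0.262 and 0.205 CPM in BALB/c and 2.35, 5.11 and 2.39 CPM in NOD.H-2b (log2 fold change 4.11 ± 0.45, adjusted p = 0.000109). Ltb, which encodes lymphotoxin beta, had 0.0372, 0.245 and 0.0856 CPM in BALB/c and 0.457, 3.2 and 2.41 CPM in NOD.H-2b (log2 fold change 4.01 ± 0.96, adjusted p = 0.0202). Others were near their limit of detection, since Ccl19 had 2, 18 and 12 counts in NOD.H-2b and none in BALB/c, and Ccl21a had none in any mouse. Tnfsf13b, the B cell survival factor BAFF, was upregulated by a smaller amount (log2 fold change 1.33 ± 0.27, adjusted p = 0.0021). Adhesion genes through which leukocytes leave vessels were higher too, Vcam1 with 1.42, 1.12 and 0.924 CPM in BALB/c and 4, 7.04 and 7.35 CPM in NOD.H-2b (log2 fold change 2.41 ± 0.26, adjusted p = 9.7e-05) and Icam1 with 1.27, 1.36 and 1.16 CPM in BALB/c and 5.85, 10.4 and 7 CPM in NOD.H-2b (log2 fold change 2.62 ± 0.22, adjusted p = 1.19e-05). Ltb did not pass without BALB/c mouse 1 or 3 (adjusted p = 0.0682 and 0.0969).

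Interferon-stimulated genes were higher in nearly every case. Of 37 tested members of the type I interferon list 31 were upregulated, 5 more were higher by less than 2-fold and 1, Ifi44l, was downregulated (log2 fold change -3.3 ± 0.45, adjusted p = 0.000164). The median log2 fold change was 2.59. Of the upregulated members 26 were lowest in mouse 1 and 24 were highest in mouse 2, although the mice differed less than for lymphocyte lists, as the ratio of 0.761 shows. Rsad2, which encodes the antiviral enzyme viperin, had 0.484, 0.507 and 0.376 CPM in BALB/c and 12.4, 11.7 and 10.2 CPM in NOD.H-2b (log2 fold change 4.64 ± 0.15, adjusted p = 1.7e-09). Oas3, which senses double-stranded RNA, had 0.298, 0.192 and 0.154 CPM in BALB/c and 4.89, 7.88 and 7.44 CPM in NOD.H-2b (log2 fold change 4.97 ± 0.28, adjusted p = 2.43e-07). Mx1, an antiviral GTPase, had 0.317, 0.437 and 0.291 CPM in BALB/c and 6.88, 9.93 and 7.05 CPM in NOD.H-2b (log2 fold change 4.51 ± 0.22, adjusted p = 4.82e-08). These 3 genes did not overlap between strains and differed by less than 2-fold among the NOD.H-2b mice. Ifit3 had 0.801, 0.542 and 0.274 CPM in BALB/c and 8.15, 13.1 and 9.91 CPM in NOD.H-2b (log2 fold change 4.28 ± 0.34, adjusted p = 7.46e-05). Irf7, the amplifier of the response, had 4.06, 4.34 and 3.03 CPM in BALB/c and 25.6, 36.2 and 34.1 CPM in NOD.H-2b (log2 fold change 3.07 ± 0.18, adjusted p = 1.59e-05). Stat2, the member with the highest level, had 41.9, 60.3 and 41.2 CPM in BALB/c and 91.3, 101 and 92.4 CPM in NOD.H-2b and fell just short of the 2-fold limit (log2 fold change 0.99 ± 0.16, adjusted p = 0.00533).

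Genes induced by interferon gamma varied more with the mouse. Of 32 tested members 26 were upregulated and none was lower, with a median log2 fold change of 2.6, and 31 were higher without mouse 1. Cxcl9, a chemokine for activated T cells, had 0.0745, 0.0524 and 0.0342 CPM in BALB/c and 1.81, 11.7 and 6.07 CPM in NOD.H-2b (log2 fold change 6.89 ± 1.2, adjusted p = 0.00949), a range of over 6-fold among the NOD.H-2b mice. Cxcl10 had 0.149, 0.0175 and 0.0513 CPM in BALB/c and 2.54, 6.64 and 3.88 CPM in NOD.H-2b (log2 fold change 5.9 ± 0.62, adjusted p = 0.000275). Both chemokines were close to nothing in BALB/c. Gbp6, a guanylate-binding protein, had 0.0372, 0.157 and 0.0685 CPM in BALB/c and 2.28, 4.47 and 3.48 CPM in NOD.H-2b (log2 fold change 5.24 ± 0.42, adjusted p = 5.64e-06). Mouse 1 was lowest and mouse 2 highest for each of these 3 genes, as for T cell genes. Jak1 did not pass (log2 fold change -0.14 ± 0.06, adjusted p = 0.0809). Cxcl9 did not pass without BALB/c mouse 3 (adjusted p = 0.0545). Jak1 passed without NOD.H-2b mouse 2 or with the epithelial median set to 0 (adjusted p = 0.0175 and 0.0335).

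The promoters of these genes carry letters that the rule did not use. The RefSeq promoter table (GRCm38.p6, 250 bases before to 50 after each gene start) held 28 of the 38 type I interferon genes, and 14 of these (50%) had the pattern GAAANNGAAA of the interferon-stimulated response element on either strand, overlapping matches counted. So did 12 of 24 interferon gamma genes (50%) and 1 of 26 epithelial structure genes (3.85%), against 3.99% of all 27025 genes with a promoter in the table. Among upregulated genes 125 of 1340 (9.33%) had it, and among downregulated genes 13 of 341 (3.81%). A match is only a description of the sequence. Printed here, 5′ to 3′ on the strand of each gene, are promoters of 2 type I genes and of Cxcl10, which varied more among the NOD.H-2b mice, with the matches in capitals: Rsad2 at chr12:26456403-26456702 (minus strand), Ifit3 at chr19:34583279-34583578 (plus strand) and Cxcl10 at chr5:92348840-92349139 (minus strand).
Rsad2: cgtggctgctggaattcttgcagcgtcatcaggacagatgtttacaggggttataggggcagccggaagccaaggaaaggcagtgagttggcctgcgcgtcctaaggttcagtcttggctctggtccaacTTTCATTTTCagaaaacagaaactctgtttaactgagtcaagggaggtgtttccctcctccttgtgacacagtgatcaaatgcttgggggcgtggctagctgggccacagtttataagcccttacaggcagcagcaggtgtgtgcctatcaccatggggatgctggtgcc
Ifit3: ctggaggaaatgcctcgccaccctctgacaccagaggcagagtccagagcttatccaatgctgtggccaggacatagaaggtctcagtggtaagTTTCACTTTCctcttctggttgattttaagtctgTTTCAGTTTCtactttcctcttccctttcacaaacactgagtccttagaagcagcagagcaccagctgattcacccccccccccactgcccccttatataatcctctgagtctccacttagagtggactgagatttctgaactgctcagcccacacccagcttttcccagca
Cxcl10: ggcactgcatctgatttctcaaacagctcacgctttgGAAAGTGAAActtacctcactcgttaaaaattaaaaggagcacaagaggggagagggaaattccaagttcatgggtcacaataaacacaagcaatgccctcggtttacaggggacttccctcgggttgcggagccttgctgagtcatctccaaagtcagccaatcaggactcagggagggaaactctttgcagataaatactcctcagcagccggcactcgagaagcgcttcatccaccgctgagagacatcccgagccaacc
The pattern began 120 bases before the start of Rsad2, 213 before that of Cxcl10 and 156 and 122 before that of Ifit3, which had 2 matches in the reverse orientation.

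Antigen presentation genes rose in both classes. Of 14 tested class II members 11 were upregulated (median log2 fold change 2.14), and H2-Ea-ps alone fell. H2-Aa, the alpha chain of I-A, had 25.2, 30.1 and 21.9 CPM in BALB/c and 50.4, 108 and 76.5 CPM in NOD.H-2b (log2 fold change 1.61 ± 0.34, adjusted p = 0.0223). The invariant chain gene Cd74, on which class II molecules fold, had 51.9, 54.7 and 40.8 CPM in BALB/c and 105, 207 and 165 CPM in NOD.H-2b (log2 fold change 1.7 ± 0.31, adjusted p = 0.0138). Ciita, the master regulator of class II genes, had 3.09, 4.14 and 3.08 CPM in BALB/c and 9, 22.3 and 15.6 CPM in NOD.H-2b (log2 fold change 2.19 ± 0.39, adjusted p = 0.0104). All 11 were lowest in mouse 1 and highest in mouse 2. The higher members numbered 13 without mouse 1 and 8 without BALB/c mouse 3. Of 31 tested class I members 19 were upregulated and 2 downregulated (median 1.43). H2-K1 had 55.5, 60.8 and 52.3 CPM in BALB/c and 272, 413 and 400 CPM in NOD.H-2b (log2 fold change 2.69 ± 0.19, adjusted p = 0.000278). Its regulator Nlrc5 had 1.47, 2.27 and 1.04 CPM in BALB/c and 20.2, 43.3 and 32.1 CPM in NOD.H-2b (log2 fold change 4.32 ± 0.46, adjusted p = 0.00196). Neither overlapped between the strains. The peptide transporter gene Tap1 had 4.21, 5.07 and 3.53 CPM in BALB/c and 24.9, 45 and 32.2 CPM in NOD.H-2b (log2 fold change 3 ± 0.28, adjusted p = 0.000836). The immunoproteasome gene Psmb9 had 0.95, 0.909 and 0.65 CPM in BALB/c and 5.17, 11.6 and 7.38 CPM in NOD.H-2b (log2 fold change 3.27 ± 0.34, adjusted p = 0.000308). The member with the highest level, the chaperone Calr, moved by 0.25 on the log2 scale (adjusted p = 0.0406). H2-Aa did not pass without BALB/c mouse 1, 2 or 3 or without NOD.H-2b mouse 3 (adjusted p = 0.0768, 0.0565, 0.0823 and 0.0652). Cd74 did not pass without BALB/c mouse 3 (adjusted p = 0.0527). Ciita did not pass without BALB/c mouse 3 (adjusted p = 0.0569). Calr did not pass without BALB/c mouse 1, 2 or 3 or without NOD.H-2b mouse 1 or 3 or with the epithelial median set to 0 (adjusted p = 0.111, 0.0791, 0.133, 0.111, 0.124 and 0.0694).

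Complement genes were upregulated for 16 of 30 tested members and downregulated for 2, against 12.0% and 3.76% of all genes. C4b, a component of the classical pathway, had 6.57, 7.92 and 5.19 CPM in BALB/c and 51, 65.1 and 58 CPM in NOD.H-2b (log2 fold change 3.15 ± 0.17, adjusted p = 1.71e-05). The initiator C1qc, made by macrophages, had 5.81, 6.26 and 4.88 CPM in BALB/c and 18.6, 22.9 and 22.3 CPM in NOD.H-2b (log2 fold change 1.91 ± 0.11, adjusted p = 2.87e-07). C3, the central component and the member with the highest level, had 45.1, 53 and 33.2 CPM in BALB/c and 107, 163 and 131 CPM in NOD.H-2b (log2 fold change 1.61 ± 0.25, adjusted p = 0.00722). C3 was above the BALB/c range in every NOD.H-2b mouse. C6, of the membrane attack complex, had 0.0745, 0.0524 and 0.0171 CPM in BALB/c and 1.32, 1.64 and 1.62 CPM in NOD.H-2b (log2 fold change 4.95 ± 0.41, adjusted p = 3.31e-06). The downregulated members were few. Hc, which encodes C5 and is known to be defective in NOD mice, was downregulated from an already low level, with 0.223, 0.245 and 0.205 CPM in BALB/c and 0.0326, 0.0612 and 0.111 CPM in NOD.H-2b (log2 fold change -1.68 ± 0.55, adjusted p = 0.0291), and so was Masp2, a protease of the lectin pathway (log2 fold change -1.06 ± 0.13, adjusted p = 8.42e-05). C4a, a close copy of C4b between which reads may be split, was lower by less than 2-fold (log2 fold change -0.89 ± 0.28, adjusted p = 0.0258). Hc did not pass without BALB/c mouse 1, 2 or 3 or without NOD.H-2b mouse 1 or 2 or in the Wald test of DESeq2 (adjusted p = 0.0724, 0.0912, 0.0677, 0.0949, 0.0798 and 0.0847). C4a did not pass without BALB/c mouse 1, 2 or 3 or without NOD.H-2b mouse 3 (adjusted p = 0.0551, 0.0727, 0.0575 and 0.0791).

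Among cytokines and inflammasome genes 17 of 25 were upregulated and none downregulated, including Tnf with 0.0372, 0.0699 and 0.103 CPM in BALB/c and 1.97, 1.78 and 1.5 CPM in NOD.H-2b (log2 fold change 4.59 ± 0.36, adjusted p = 2.42e-06), the DNA sensor Aim2 (log2 fold change 3.02 ± 0.36, adjusted p = 9.64e-05) and the antagonist Il1rn, which had at most 1 count in a BALB/c mouse and 0.554, 1.01 and 0.665 CPM in NOD.H-2b. Il1r1, the receptor with the highest level in the list, was lower by less than 2-fold (log2 fold change -0.62 ± 0.088, adjusted p = 0.000246). This receptor is active in many cells outside the immune system. Toll-like receptor genes were upregulated for 15 of 28 members, the nucleic acid sensors Tlr9 (log2 fold change 2.82 ± 0.28, adjusted p = 7.56e-05) and Tlr13 (log2 fold change 3.01 ± 0.24, adjusted p = 2.47e-06) among them. Of 17 tested cathepsin and cystatin genes 7 were upregulated and none downregulated, with a median log2 fold change of 0.61. Among them were Ctss of antigen-presenting cells at 5.75, 6.29 and 4.81 CPM in BALB/c and 25.8, 42.1 and 36.7 CPM in NOD.H-2b (log2 fold change 2.63 ± 0.22, adjusted p = 0.000231) and Ctsh of lysosomes at 8.38, 7.78 and 7.03 CPM in BALB/c and 37.2, 39 and 35.8 CPM in NOD.H-2b (log2 fold change 2.27 ± 0.077, adjusted p = 2.13e-09).

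**Figure D3:**
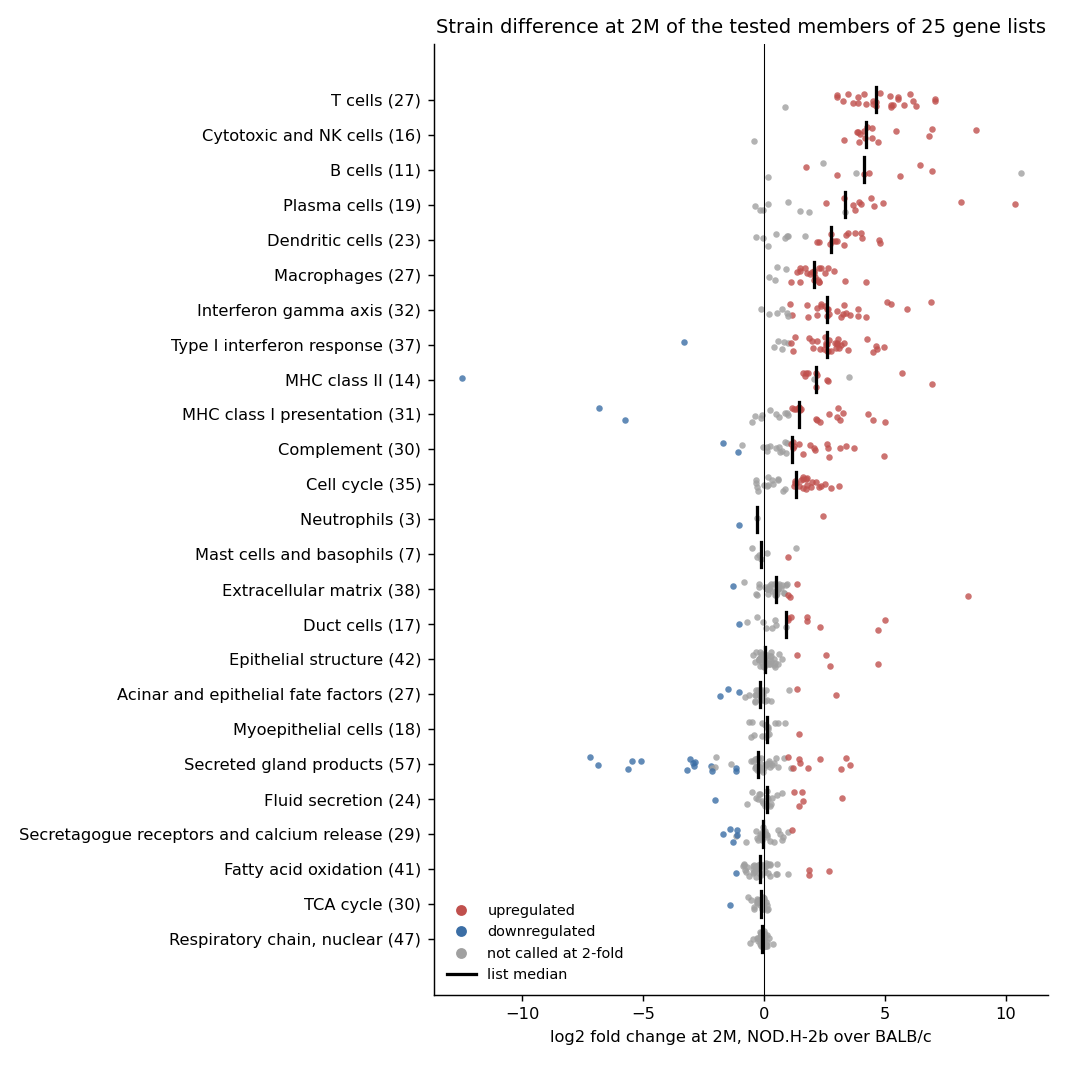
Fitted log2 fold change at 2M (NOD.H-2b over BALB/c) of each tested member of 25 gene lists, with the number of tested members in brackets. Red and blue points passed an FDR of 0.05 and a fold of 2, and black bars are list medians. Medians of the immune lists from T cells to complement run from 4.64 to 1.16, while that of epithelial structure is 0.03 and that of the nuclear respiratory chain -0.07.

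Cell division genes were higher in NOD.H-2b. Of 35 members 21 were upregulated, and 2, Mcm2 and Pcna, were lower. Mcm6, of the replication helicase, had 1.84, 1.31 and 0.907 CPM in BALB/c and 7.86, 7.01 and 8.24 CPM in NOD.H-2b (log2 fold change 2.51 ± 0.21, adjusted p = 8.91e-06). Aurkb, the mitotic kinase, had 0.149, 0.157 and 0.0513 CPM in BALB/c and 0.946, 0.735 and 1.44 CPM in NOD.H-2b (log2 fold change 3.11 ± 0.45, adjusted p = 0.00022). Mki67, the member with the highest level, had 32.2, 34.1 and 29.4 CPM in BALB/c and 37, 28.8 and 42.3 CPM in NOD.H-2b and did not pass (log2 fold change 0.17 ± 0.14, adjusted p = 0.378). The order of mice differed from that of lymphocyte genes, since none of the 21 was highest in mouse 2 and only 5 were lowest in mouse 1. Death genes were upregulated for 14 of 40 members, against 12.0% of all genes. Among them were the cell cycle inhibitor Cdkn1a at 0.242, 0.21 and 0.24 CPM in BALB/c and 2.43, 2.65 and 2.53 CPM in NOD.H-2b (log2 fold change 3.45 ± 0.24, adjusted p = 7.61e-07) and the BH3-only gene Pmaip1 (log2 fold change 3.48 ± 0.44, adjusted p = 9.43e-05). Mki67 passed without NOD.H-2b mouse 2 (adjusted p = 0.0102).

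Epithelial structure genes, those of adhesion, tight junctions, keratins and epithelial splicing, stayed near the level of BALB/c. All 42 were tested, 38 lay within 2-fold and the median log2 fold change was 0.03. Without regard to fold, 17 of the 42 were higher, against 22.5% of all genes, and 8 were lower, against 17.2%. The 17 included the 4 upregulated members. Krt18, the keratin of simple epithelia, had 219, 220 and 217 CPM in BALB/c and 227, 215 and 226 CPM in NOD.H-2b (log2 fold change 0.03 ± 0.044, adjusted p = 0.674). The strains overlapped. Epcam, a surface protein of epithelial cells, had 87, 88.3 and 86 CPM in BALB/c and 115, 115 and 116 CPM in NOD.H-2b (log2 fold change 0.4 ± 0.043, adjusted p = 2.19e-05). Cdh1, which encodes E-cadherin, had 105, 103 and 102 CPM in BALB/c and 189, 159 and 169 CPM in NOD.H-2b (log2 fold change 0.74 ± 0.061, adjusted p = 3.4e-06), both higher in every NOD.H-2b mouse. Dsp, the desmosome protein with the highest level, had 436, 449 and 486 CPM in BALB/c and 387, 377 and 415 CPM in NOD.H-2b and was lower (log2 fold change -0.22 ± 0.056, adjusted p = 0.00932). The 4 upregulated members had low levels in BALB/c and are genes of ducts and surface epithelia. Cldn4, a tight junction claudin, had 0.112, 0.315 and 0.0685 CPM in BALB/c and 5.3, 3.35 and 4.61 CPM in NOD.H-2b (log2 fold change 4.72 ± 0.41, adjusted p = 2.25e-05). The surface mucin Muc1 had 0.0559, 0.175 and 0.0342 CPM in BALB/c and 0.603, 0.474 and 0.744 CPM in NOD.H-2b (log2 fold change 2.75 ± 0.52, adjusted p = 0.00142). All NOD.H-2b mice were above all BALB/c mice for both. The transcription factor Elf3 had 8.42, 8.93 and 7.97 CPM in BALB/c and 19, 21.5 and 24.1 CPM in NOD.H-2b (log2 fold change 1.35 ± 0.094, adjusted p = 9.52e-07).

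Duct genes as a list were upregulated for 8 of 17 members and downregulated for 1, Elf5, against 12.0% and 3.76% of all genes. Slpi, a secreted protease inhibitor, had 0.0186, 0.192 and 0.0685 CPM in BALB/c and 1.73, 4.32 and 3.23 CPM in NOD.H-2b (log2 fold change 5.01 ± 0.59, adjusted p = 0.000343). Ltf, which encodes lactoferrin, had 564, 575 and 569 CPM in BALB/c and 805, 710 and 878 CPM in NOD.H-2b and was higher by less than 2-fold (log2 fold change 0.49 ± 0.069, adjusted p = 0.000239). Unlike lymphocyte genes, 1 of the 8 was lowest in mouse 1. Transcription factors of acinar and epithelial fate had 2 upregulated and 3 downregulated members among 27, against 12.0% and 3.76% of all genes. Tfap2b had 67, 60 and 65.7 CPM in BALB/c and 18.5, 17.2 and 18.5 CPM in NOD.H-2b (log2 fold change -1.83 ± 0.062, adjusted p = 2.13e-09). Barx2, a factor of gland branching, had 13.4, 13.4 and 10 CPM in BALB/c and 4.5, 4.45 and 4.09 CPM in NOD.H-2b (log2 fold change -1.5 ± 0.12, adjusted p = 3.05e-06). Elf5, a factor of secretory epithelium, had 71.2, 73.3 and 67 CPM in BALB/c and 35.2, 30.9 and 36.1 CPM in NOD.H-2b (log2 fold change -1.05 ± 0.066, adjusted p = 3.95e-07). The groups did not overlap for these 3. Bhlha15, the acinar maturation factor Mist1, had 923, 945 and 1056 CPM in BALB/c and 852, 801 and 926 CPM in NOD.H-2b and did not pass (log2 fold change -0.18 ± 0.067, adjusted p = 0.0517). Runx3, upregulated here (log2 fold change 2.99 ± 0.3, adjusted p = 2.99e-05), is also a factor of T cells and had 2.81, 5.17 and 4.09 CPM in NOD.H-2b. Both upregulated fate factors, Runx3 and Elf3, were lowest in mouse 1. Myoepithelial genes gave 1 upregulated member of 18, against 12.0% of all genes, which was Actg2 (log2 fold change 1.43 ± 0.31, adjusted p = 0.0031). Myh11 had 55.8, 56.1 and 46.4 CPM in BALB/c and 52.8, 42.6 and 56 CPM in NOD.H-2b (log2 fold change -0.07 ± 0.12, adjusted p = 0.707). Bhlha15 passed without NOD.H-2b mouse 3 or with DESeq2 size factors or in the Wald test of DESeq2 or with the epithelial median set to 0 (adjusted p = 0.0142, 0.0353, 0.0158 and 0.0235).

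Among proteins secreted into tears, most abundant products stayed within 2-fold, many of them at lower levels, and others had large strain differences. The 57 tested members took 49.6%, 49.4% and 49.2% of all counts in the BALB/c mice and 43.3%, 45.3% and 44% in NOD.H-2b. Of the 57, 9 were upregulated and 14 downregulated, against 12.0% and 3.76% of all genes. Without regard to fold 25 were lower, against 17.2%, and 12 higher, against 22.5% (median log2 fold change -0.25). Among the 15 members with a mean of at least 10000 CPM in BALB/c, 12 lay within 2-fold and 2 were called. Of those within 2-fold, Scgb1b2, Scgb2b2, Scgb2b7, Scgb1b7, Scgb2b24, Scgb1b3 and Scgb1b20 were lower, while Mup4, Scgb2b20, Esp16, Pip and Obp1a did not pass. Scgb2b7, a secretoglobin and the most abundant member, had 67746, 70105 and 71498 CPM in BALB/c and 59722, 64020 and 62667 CPM in NOD.H-2b (log2 fold change -0.17 ± 0.052, adjusted p = 0.0237). Mup4, a major urinary protein, had 43281, 44066 and 45267 CPM in BALB/c and 42781, 43221 and 41810 CPM in NOD.H-2b (log2 fold change -0.05 ± 0.049, adjusted p = 0.429). Pip, prolactin-inducible protein, had 13203, 14009 and 13603 CPM in BALB/c and 14216, 13329 and 13685 CPM in NOD.H-2b (log2 fold change 0.01 ± 0.051, adjusted p = 0.851). The strains overlapped for Pip and were barely apart for Mup4. The largest losses in level were those of 2 other secretoglobins, neither of which reached 2-fold. Scgb1b2 had 52215, 49510 and 53439 CPM in BALB/c and 32342, 38760 and 34652 CPM in NOD.H-2b (log2 fold change -0.55 ± 0.068, adjusted p = 7.58e-05). Scgb2b2 had 63292, 60773 and 68076 CPM in BALB/c and 46573, 54179 and 47591 CPM in NOD.H-2b (log2 fold change -0.37 ± 0.069, adjusted p = 0.00117). Scgb2b7 did not pass without BALB/c mouse 1, 2 or 3 (adjusted p = 0.0595, 0.0959 and 0.0916).

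**Figure D4:**
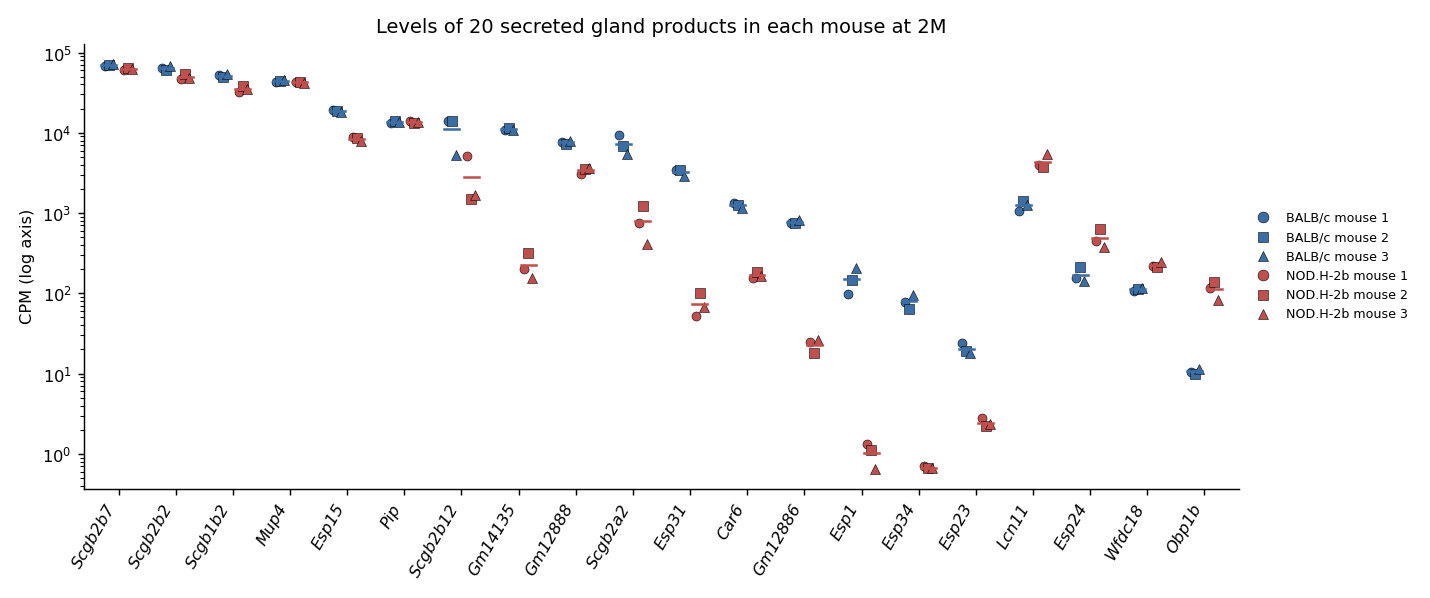
CPM (log axis) of 20 members of the secreted product list in each mouse at 2M, BALB/c in blue and NOD.H-2b in red, with a line at the mean of 3. Scgb2b7, Mup4 and Pip nearly coincide, Gm14135, Esp31, Gm12886, Esp1 and Esp34 are lower in NOD.H-2b, each with a log2 fold change of -5.08 or beyond, and Lcn11, Esp24, Wfdc18 and Obp1b are higher.

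The exocrine gland-secreting peptides (Esp) include male tear pheromones and lie in a cluster on chromosome 17. Esp1, the best known of them, had 96.9, 146 and 208 CPM in BALB/c and 1.32, 1.13 and 0.649 CPM in NOD.H-2b (log2 fold change -7.18 ± 0.5, adjusted p = 0.000601). Esp34 had 78.9, 63.9 and 96.6 CPM in BALB/c and 0.701, 0.658 and 0.665 CPM in NOD.H-2b (log2 fold change -6.88 ± 0.22, adjusted p = 1.71e-06). Esp31 had 3406, 3441 and 2896 CPM in BALB/c and 51.6, 100 and 68 CPM in NOD.H-2b (log2 fold change -5.47 ± 0.33, adjusted p = 0.000278). All NOD.H-2b mice were far under the BALB/c mice for each. Esp23, Esp36 and Esp3 were downregulated as well. Esp15, the most abundant of the family here, had 19458, 18679 and 17901 CPM in BALB/c and 8825, 8611 and 7954 CPM in NOD.H-2b (log2 fold change -1.14 ± 0.058, adjusted p = 6.92e-08). Esp24 went the other way, with 155, 214 and 143 CPM in BALB/c and 449, 628 and 376 CPM in NOD.H-2b (log2 fold change 1.51 ± 0.28, adjusted p = 0.0133). Groups did not overlap for any of these. The remaining large decreases were in other families. Gm14135, annotated as a long noncoding RNA, had 10982, 11326 and 10941 CPM in BALB/c and 199, 321 and 156 CPM in NOD.H-2b (log2 fold change -5.62 ± 0.36, adjusted p = 0.000367). Gm12886 had 757, 758 and 822 CPM in BALB/c and 24.9, 18.2 and 25.9 CPM in NOD.H-2b (log2 fold change -5.08 ± 0.15, adjusted p = 1.67e-06). All NOD.H-2b mice were below all BALB/c mice for both. Car6, the secreted carbonic anhydrase, had 1348, 1269 and 1170 CPM in BALB/c and 157, 186 and 166 CPM in NOD.H-2b (log2 fold change -2.89 ± 0.077, adjusted p = 1.14e-09). Scgb2a2, a mammaglobin, had 9310, 6930 and 5468 CPM in BALB/c and 755, 1236 and 417 CPM in NOD.H-2b (adjusted p = 0.0113). Here too the groups did not overlap. On the other side, the lipocalin Lcn11 had 1060, 1409 and 1267 CPM in BALB/c and 3969, 3704 and 5390 CPM in NOD.H-2b (log2 fold change 1.81 ± 0.19, adjusted p = 0.000952). The odorant-binding protein Obp1b had 10.6, 9.81 and 11.5 CPM in BALB/c and 118, 137 and 82.8 CPM in NOD.H-2b (log2 fold change 3.41 ± 0.23, adjusted p = 0.000247). Esp24 did not pass without BALB/c mouse 3 (adjusted p = 0.0503). Scgb2a2 did not pass without NOD.H-2b mouse 1 (adjusted p = 0.0508).

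A few of these products varied so much between mice of a strain that they did not pass in edgeR. Scgb2b12 had 14200, 13889 and 5242 CPM in BALB/c and 5192, 1502 and 1667 CPM in NOD.H-2b, so that BALB/c mouse 3 and NOD.H-2b mouse 1 had nearly the same level (adjusted p = 0.112). Obp1a had 13677, 6416 and 22429 CPM in BALB/c and 10348, 19132 and 15400 CPM in NOD.H-2b (adjusted p = 0.93). The Scgb, Esp, Mup and Lcn genes are families of similar copies that differ in number and sequence between strains, so that reads of 1 strain may be lost or moved to a neighbour, and the size of a change in a single member is uncertain. Scgb2b12 passed without NOD.H-2b mouse 1 or in the Wald test of DESeq2 (adjusted p = 0.0481 and 0.018).

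Most genes for fluid and for the response to nerves were not called. Of 24 fluid genes 5 were upregulated and 1 downregulated, against 12.0% and 3.76% of all genes. Without regard to fold, 9 of 24 fluid genes were higher and 6 lower, with 6 higher without BALB/c mouse 3 or without NOD.H-2b mouse 1. Of 29 receptors and calcium release genes 6 were higher and 10 lower. The shares of all genes were 22.5% higher and 17.2% lower. Aqp5, the water channel of acinar cells, had 141, 143 and 142 CPM in BALB/c and 137, 125 and 153 CPM in NOD.H-2b (log2 fold change -0.04 ± 0.067, adjusted p = 0.67). The strains overlapped. Kcnn4, a calcium-activated potassium channel that drives secretion, was the only downregulated member of 24, with 25.3, 23.8 and 23.1 CPM in BALB/c and 5.14, 6.58 and 6 CPM in NOD.H-2b (log2 fold change -2.02 ± 0.094, adjusted p = 3.19e-08). Of 5 upregulated members the most abundant was Aqp1, a water channel of vessels and myoepithelium, with 5.46, 4.74 and 5.44 CPM in BALB/c and 18, 15.1 and 14.5 CPM in NOD.H-2b (log2 fold change 1.61 ± 0.1, adjusted p = 5.47e-07). Among the 29 receptors and calcium release genes 5 were downregulated and 1 upregulated, against 3.76% and 12.0% of all genes. Vipr1, the receptor of the nerve peptide VIP, had 73.4, 69.3 and 81.1 CPM in BALB/c and 24.3, 20.7 and 24.7 CPM in NOD.H-2b (log2 fold change -1.68 ± 0.081, adjusted p = 1.22e-07). Stim1, the calcium sensor of the endoplasmic reticulum, had 84.6, 88.8 and 94.7 CPM in BALB/c and 42.5, 40.5 and 41.2 CPM in NOD.H-2b (log2 fold change -1.11 ± 0.054, adjusted p = 4.66e-08). The kinase Prkca had 22.1, 22.9 and 26.1 CPM in BALB/c and 7.36, 9.03 and 10.7 CPM in NOD.H-2b (log2 fold change -1.39 ± 0.13, adjusted p = 3.6e-05). All 3 were lower in every NOD.H-2b mouse. Chrm3, the muscarinic receptor for acetylcholine, had 39.7, 40.4 and 44.3 CPM in BALB/c and 34.2, 31.7 and 32.4 CPM in NOD.H-2b and was lower by less than 2-fold (log2 fold change -0.34 ± 0.06, adjusted p = 0.000885). Of 22 exocytosis genes 2 were upregulated, against 12.0% of all genes. They were Unc13d (log2 fold change 2.88 ± 0.46, adjusted p = 0.00124) and Sytl2 (log2 fold change 2.26 ± 0.45, adjusted p = 0.00226). Both are also active in cytotoxic lymphocytes and were lowest in mouse 1. Rab3d, the granule GTPase of acinar cells, had 349, 343 and 342 CPM in BALB/c and 253, 243 and 273 CPM in NOD.H-2b and was lower (log2 fold change -0.43 ± 0.051, adjusted p = 5.9e-05).

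Metabolic genes moved in small steps. In fatty acid oxidation 21 of 41 members were lower, against 17.2% of all genes, 10 were higher, and the median log2 fold change was -0.15. Slc27a2, an acyl-CoA synthetase and the member with the highest level, had 3103, 2928 and 3297 CPM in BALB/c and 1354, 1419 and 1437 CPM in NOD.H-2b (log2 fold change -1.15 ± 0.057, adjusted p = 5.5e-08). In the TCA cycle 11 of 30 members were lower and 1 higher, with Suclg2 of succinyl-CoA ligase at 36.4, 38.3 and 38.4 CPM in BALB/c and 15, 14.7 and 13.1 CPM in NOD.H-2b (log2 fold change -1.4 ± 0.067, adjusted p = 4.19e-08). Neither list of the respiratory chain had a called member. Among 47 nuclear genes 5 were lower and 2 higher, with Atp5b at 377, 376 and 376 CPM in BALB/c and 358, 341 and 360 CPM in NOD.H-2b (log2 fold change -0.09 ± 0.044, adjusted p = 0.122). Fatty acid synthesis had 2 upregulated and 2 downregulated members of 39, against 12.0% and 3.76% of all genes. Acss2, which makes acetyl-CoA from acetate, had 27.8, 29 and 29.8 CPM in BALB/c and 9.05, 8.6 and 9.68 CPM in NOD.H-2b (log2 fold change -1.66 ± 0.07, adjusted p = 1.5e-08). Malic enzyme Me1 had 88.1, 83.7 and 81.7 CPM in BALB/c and 34.4, 30 and 35.2 CPM in NOD.H-2b (log2 fold change -1.35 ± 0.065, adjusted p = 4.52e-08). Cholesterol genes leaned upward, with 8 of 30 upregulated, among them Hsd17b7 (log2 fold change 2.71 ± 0.34, adjusted p = 8.25e-05), Pmvk (log2 fold change 2.09 ± 0.14, adjusted p = 6.67e-06) and the esterifying enzyme Soat1 at 127, 120 and 117 CPM in BALB/c and 290, 292 and 280 CPM in NOD.H-2b (log2 fold change 1.24 ± 0.048, adjusted p = 7.19e-09). Atp5b passed with the epithelial median set to 0 (adjusted p = 0.0381).

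Amino acid metabolism held the largest increase among abundant genes. Nos1, the neuronal nitric oxide synthase, which turns arginine into nitric oxide, had 0.168, 0.175 and 0.0685 CPM in BALB/c and 206, 132 and 178 CPM in NOD.H-2b (log2 fold change 10.28 ± 0.34, adjusted p = 1.48e-05). The inducible form Nos2 was upregulated from at most 4 counts in a BALB/c mouse to 0.522, 0.383 and 0.475 CPM. Arg1, the arginase that competes for the same substrate, had 41.1, 32 and 34.3 CPM in BALB/c and 9.03, 13 and 15.4 CPM in NOD.H-2b and was downregulated (log2 fold change -1.52 ± 0.21, adjusted p = 0.00296). In the breakdown of tryptophan, the first enzyme Tdo2 was downregulated at low level (log2 fold change -1.91 ± 0.51, adjusted p = 0.0107), and Kynu, further down the path, was upregulated with 0.112, 0.0699 and 0.137 CPM in BALB/c and 0.489, 1.71 and 1.5 CPM in NOD.H-2b (log2 fold change 3.52 ± 0.53, adjusted p = 0.00041). Ggt1 of glutathione turnover had 10.4, 10.5 and 11.7 CPM in BALB/c and 4.53, 4.61 and 4.55 CPM in NOD.H-2b (log2 fold change -1.25 ± 0.091, adjusted p = 1.3e-06). Over the list, 11 of 53 were upregulated and 4 downregulated, against 12.0% and 3.76% of all genes. Folding and stress genes of the endoplasmic reticulum gave 1 called member of 30, the stress pseudokinase Trib3, with 0.67, 1.03 and 0.685 CPM in BALB/c and 7.7, 5.95 and 7.06 CPM in NOD.H-2b (log2 fold change 3.11 ± 0.19, adjusted p = 3.22e-07). Tdo2 did not pass without BALB/c mouse 2 (adjusted p = 0.066).

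Matrix genes were higher in a modest but broad way, for 23 of 38, against 22.5% of all genes, with a median log2 fold change of 0.48. Col3a1, a fibrillar collagen, had 268, 239 and 193 CPM in BALB/c and 349, 304 and 320 CPM in NOD.H-2b (log2 fold change 0.48 ± 0.12, adjusted p = 0.0213). Fbn1, the microfibril protein, had 47.1, 44.4 and 28.6 CPM in BALB/c and 84.1, 85.2 and 83.8 CPM in NOD.H-2b (log2 fold change 1.08 ± 0.2, adjusted p = 0.00978). Timp3, an inhibitor of matrix proteases, was the only lower member, with 57, 61 and 60 CPM in BALB/c and 26.1, 21.2 and 26.4 CPM in NOD.H-2b (log2 fold change -1.27 ± 0.08, adjusted p = 8.23e-07). The strains did not overlap for any of these 3. Hapln4, a hyaluronan link protein better known from the nervous system, was among the largest increases of all abundant genes, with 0.0931, 0.0874 and 0.0685 CPM in BALB/c and 29.6, 27.1 and 31.9 CPM in NOD.H-2b (log2 fold change 8.45 ± 0.15, adjusted p = 1.8e-11). Col3a1 did not pass without NOD.H-2b mouse 1, 2 or 3 (adjusted p = 0.0747, 0.0805 and 0.076). Fbn1 did not pass without NOD.H-2b mouse 2 (adjusted p = 0.0542).

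Several of the largest changes fell outside every immune list and were tight among the NOD.H-2b mice. Ceacam2, a cell adhesion gene, had 0.186, 0.245 and 0.359 CPM in BALB/c and 162, 138 and 158 CPM in NOD.H-2b (log2 fold change 9.16 ± 0.14, adjusted p = 3.11e-11), although it shares long stretches of sequence with Ceacam1. Fgg, the gamma chain of fibrinogen, had 15.5, 13.4 and 15.1 CPM in BALB/c and 501, 446 and 485 CPM in NOD.H-2b (log2 fold change 5.03 ± 0.075, adjusted p = 1.06e-11). The actin regulator Coro2a had 0.708, 1.26 and 0.428 CPM in BALB/c and 69.7, 56.7 and 42.4 CPM in NOD.H-2b (log2 fold change 6.14 ± 0.4, adjusted p = 0.000301). The NOD.H-2b mice differed from each other by less than 2-fold for these 3. Glrb, a glycine receptor subunit, had 0.689, 0.734 and 0.65 CPM in BALB/c and 27.6, 28.8 and 21.7 CPM in NOD.H-2b (log2 fold change 5.23 ± 0.14, adjusted p = 5.93e-10). Apof, an apolipoprotein, had 0.559, 0.804 and 0.411 CPM in BALB/c and 20.3, 20.8 and 26 CPM in NOD.H-2b (log2 fold change 5.24 ± 0.19, adjusted p = 9.71e-08). The same was true of Glrb and Apof. On the lower side, Lzts1 had 23.5, 43.3 and 49.5 CPM in BALB/c and 0.212, 0.168 and 0.143 CPM in NOD.H-2b (log2 fold change -7.78 ± 0.52, adjusted p = 0.00032). A2ml1, a broad protease inhibitor, had 427, 497 and 316 CPM in BALB/c and 27.6, 26 and 33.5 CPM in NOD.H-2b (log2 fold change -3.83 ± 0.23, adjusted p = 0.000179). Rapgef3, an exchange factor that answers to cAMP, had 84.9, 80.8 and 89 CPM in BALB/c and 7.7, 7.53 and 6.73 CPM in NOD.H-2b (log2 fold change -3.54 ± 0.069, adjusted p = 2.6e-11). No NOD.H-2b mouse came near the BALB/c range of these 3. B4galt1, a galactosyltransferase, had 138, 113 and 129 CPM in BALB/c and 10.7, 12.1 and 14.8 CPM in NOD.H-2b (log2 fold change -3.34 ± 0.13, adjusted p = 3.16e-06). The kelch gene Klhl41 (log2 fold change 6.76 ± 0.32, adjusted p = 3.99e-06) and the exchange factor Arhgef19 (log2 fold change -3.22 ± 0.14, adjusted p = 1.39e-06) complete the 10 largest changes each way. With at least 10 CPM in every mouse of 1 strain and at most 3 counts in each of the other, 1 gene (Klk1b11, a kallikrein, at chr7:43995877-43999875) was nearly silent in BALB/c, and 4 were so in NOD.H-2b. These were H2-Ea-ps, the serotonin receptor gene Htr5b at chr1:121509842-121528465, and the predicted genes Gm10260 and Gm5886.

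Markers of neighbouring tissues differed in direction, and their part in the other results was not tested. Skeletal muscle gave 2 tested genes of 18, Ckm and Mb, both downregulated in NOD.H-2b, with a summed level of 0.838 to 1.33 CPM in BALB/c and 0.0317 to 0.179 CPM in NOD.H-2b. Adipocyte genes summed to between 18.9 and 23.8 CPM in BALB/c and between 26.9 and 38.5 CPM in NOD.H-2b with no called member of 8. Haemoglobin genes, which report blood in the gland, gave Hba-a1 with 4.9, 3.58 and 4.54 CPM in BALB/c and 12.8, 19.7 and 26.7 CPM in NOD.H-2b (log2 fold change 2.19 ± 0.32, adjusted p = 0.00414), while its near-identical copy Hba-a2 had at most 2 counts in NOD.H-2b and 1.45, 0.979 and 1.87 CPM in BALB/c, so reads may have been split between the copies. Hbb-bs had 20.8, 16.9 and 23.4 CPM in BALB/c and 23.9, 35.9 and 48.2 CPM in NOD.H-2b (log2 fold change 0.82 ± 0.3, adjusted p = 0.0985). Among the NOD.H-2b glands mouse 1 was lowest for Hba-a1 and Hbb-bs. Lymph node stroma and sinus genes summed to between 2.7 and 5.96 CPM in BALB/c and between 18.5 and 20.8 CPM in NOD.H-2b, and 4 of 5 tested members were upregulated, with a median log2 fold change of 2.21. These were Siglec1 of sinus macrophages (log2 fold change 2.27 ± 0.31, adjusted p = 0.00228), which tissue macrophages under interferon also express, Cxcl13, and the lymphatic and sinus genes Stab2 (log2 fold change 2.21 ± 0.52, adjusted p = 0.0051) and Lyve1 (log2 fold change 1.48 ± 0.49, adjusted p = 0.0325). Ccl21a and Madcam1, which define lymph node stroma and vessels, had no count in any mouse. Of 21 clock genes 2 were upregulated and 2 downregulated, against 12.0% and 3.76% of all genes. Arntl had 1.53, 1.28 and 0.787 CPM in BALB/c and 6.56, 5.74 and 3.04 CPM in NOD.H-2b (log2 fold change 2.1 ± 0.35, adjusted p = 0.00217). Of 23 immediate early genes 8 were upregulated, against 12.0% of all genes, such as Fos (log2 fold change 2 ± 0.2, adjusted p = 1.5e-05). The hour of collection is not given in the sources used here, and its part in these values was not tested. Hbb-bs passed without NOD.H-2b mouse 1 or in the Wald test of DESeq2 (adjusted p = 0.00858 and 0.0245). Lyve1 did not pass without BALB/c mouse 1 or 3 or without NOD.H-2b mouse 1 or 3 (adjusted p = 0.0945, 0.0735, 0.0782 and 0.0828).

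Finally, the strain difference at 2M was set against the mean of those at 4M and 6M in 1 fit of all 18 mice, with 19117 genes tested and no mouse shared between ages. The question was which parts of the strain difference were already present at 2M. The difference at 2M was above that of later ages for 1120 genes (5.86%) and below it for 1029 (5.38%), at an FDR of 0.05 with no limit on fold. Both counts moved with single mice. Without NOD.H-2b 2M mouse 1 they were 555 and 494. The count below fell to 527, 482 and 568 without BALB/c 2M mouse 1, 2 or 3, and to 659 without NOD.H-2b 2M mouse 3 or BALB/c 4M mouse 2, and the count above was 1732 without BALB/c 6M mouse 3.

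Epithelial structure genes stood out in this comparison. For 29 of 42 the difference at 2M was above that of later ages and for none below, with medians of -0.01 at 2M, -0.31 at 4M and -0.54 at 6M, while the medians of all genes lay between -0.03 and 0.006. Without NOD.H-2b 2M mouse 1 the count was 18, and against 4M alone it was 11. Krt18 differed between strains by log2 values of -0.02 at 2M, -0.53 at 4M and -0.69 at 6M (adjusted p = 0.00314). Epcam differed by log2 values of 0.36 at 2M, -0.19 at 4M and -0.2 at 6M (adjusted p = 0.000634), and Cdh1 by log2 values of 0.7 at 2M, 0.01 at 4M and -0.11 at 6M (adjusted p = 0.00313). Of 29 fate factors 11 were above and none below, Tfap2b with log2 values of -1.87 at 2M, -2.37 at 4M and -3.03 at 6M (adjusted p = 0.0093). The same held for 13 of 42 fatty acid oxidation genes and 7 of 30 folding genes, which became 6 and 0 without NOD.H-2b 2M mouse 1. The folding genes were 1 without NOD.H-2b 2M mouse 3 and 11 without NOD.H-2b 6M mouse 2. Against 4M alone 3 fate factors and none of these metabolic or folding genes passed.

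Immune lists for the most part showed no difference between ages that passed the test in edgeR. No T cell gene of 28 passed in either direction, with medians of 4.68, 4.52 and 5.6, and 3 of 28 macrophage genes (Cd163, Folr2 and Mertk) were above, 1 without NOD.H-2b 2M mouse 1. A difference that did not pass is not shown to be equal at these ages. Class II medians were 2.1, 2.73 and 3.73, and 2 of 14 members were below. Interferon gamma medians were 2.58, 2.89 and 3.67, and 3 of 35 members were below. Neither list had a member above. In the Wald test of DESeq2 each list had 7 members below, and without BALB/c 2M mouse 3 each had 0 in edgeR. In the B cell list medians were 4.53, 7.04 and 8.57, but 1 of 19 members passed in edgeR, Ebf1, and 3 without NOD.H-2b 2M mouse 1, against 8 in DESeq2's Wald test. Ms4a1 and Pax5, at the level of BALB/c in NOD.H-2b 2M mouse 1, were among those that did not pass in edgeR. Plasma cell genes above were 3 of 21. Igha differed by log2 values of 3.9 at 2M, 1.75 at 4M and 1.75 at 6M (adjusted p = 0.0209), and Jchain by log2 values of 3.62 at 2M, 1.65 at 4M and 1.65 at 6M (adjusted p = 0.0291), with Igkc as the third member above. None of the 3 passed without BALB/c 2M mouse 1, without BALB/c 2M mouse 2 or without NOD.H-2b 2M mouse 3, and 1 did without NOD.H-2b 2M mouse 2. In the type I interferon list 2 of 38 members were above, Rsad2 with log2 values of 4.6 at 2M, 3.29 at 4M and 3.37 at 6M (adjusted p = 0.0179) and Oas1g, and 1, Ifnar1, was below. Neither of the former passed without BALB/c 2M mouse 3. Of 32 members of the TYROBP list 7 were below and none above. That count fell to between 2 and 4 without BALB/c 2M mouse 1, 2 or 3, without NOD.H-2b 2M mouse 1 or 3, without BALB/c 4M mouse 1 or 2, without BALB/c 6M mouse 1, 2 or 3 or without NOD.H-2b 6M mouse 1.

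**Figure D5:**
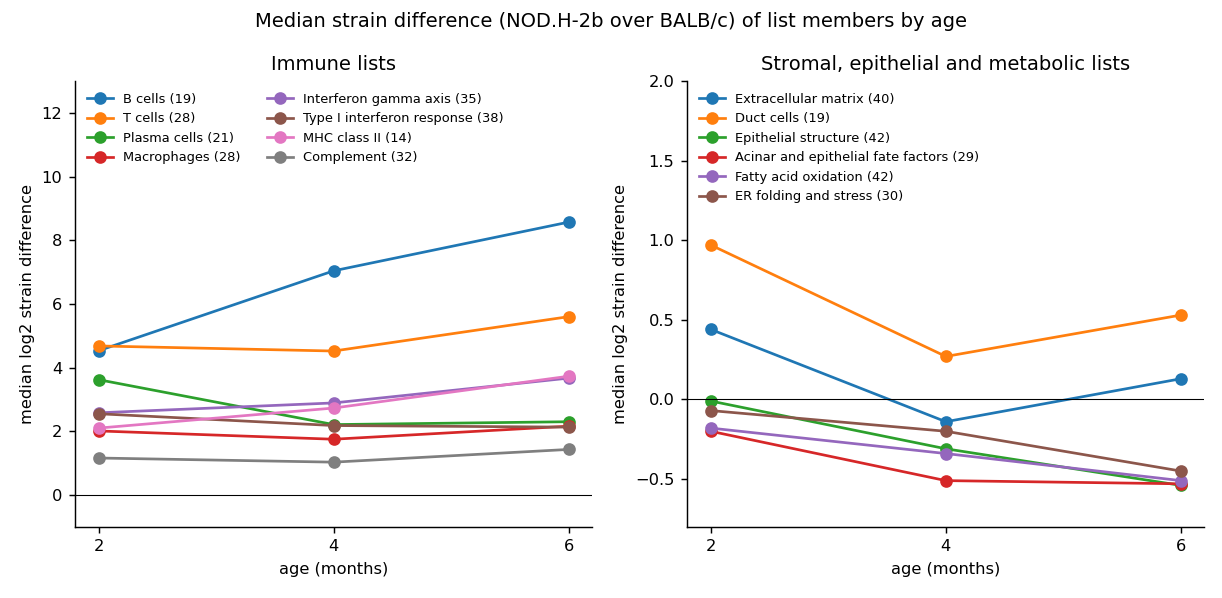
Median log2 strain difference (NOD.H-2b over BALB/c) of the tested members of 14 lists at 2, 4 and 6 months, from 1 fit of 18 mice, with the number of tested members in brackets. Left, immune lists, of which B cells run from 4.53 to 8.57 and macrophages stay between 1.75 and 2.16. Right, epithelial structure runs from -0.01 to -0.54.

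The smallest p-values above belonged to genes of epithelium and metabolism. Pllp, a membrane protein of epithelial vesicles, differed by log2 values of 0.22 at 2M, -0.67 at 4M and -1.31 at 6M (adjusted p = 0.000103). Ggt1 differed by log2 values of -1.3 at 2M, -2.31 at 4M and -3.28 at 6M (adjusted p = 0.000278), and Ggh, which trims folates, by log2 values of -0.09 at 2M, -0.98 at 4M and -1.32 at 6M (adjusted p = 0.000278). In each case the value was lower at 4M and lower again at 6M. Arpin, an inhibitor of actin branching, differed by log2 values of 0.6 at 2M, 0.07 at 4M and -0.14 at 6M (adjusted p = 0.000278), the receptor Erbb3 by log2 values of -0.09 at 2M, -0.66 at 4M and -0.85 at 6M (adjusted p = 0.000278), and Cyp2f2, a cytochrome P450, by log2 values of -2.09 at 2M, -2.92 at 4M and -2.73 at 6M (adjusted p = 0.000278). The smallest p-values below were of mixed kinds. The condensin gene Smc4 differed by log2 values of 0.57 at 2M, 1.65 at 4M and 2 at 6M (adjusted p = 0.000421). Pecam1, an adhesion protein of endothelium and leukocytes, differed by log2 values of 0.52 at 2M, 1.61 at 4M and 2.24 at 6M (adjusted p = 0.000518). Both were higher in NOD.H-2b at each age and more so later. Snord17, a small nucleolar RNA, differed by log2 values of -0.55 at 2M, 0.47 at 4M and 0.99 at 6M (adjusted p = 0.000278), and Scgb1b2 by log2 values of -0.6 at 2M, 0.14 at 4M and 0.24 at 6M (adjusted p = 0.00051), so that the sign turned with age. St8sia6, a sialyltransferase, differed by log2 values of -0.14 at 2M, 0.77 at 4M and 1.13 at 6M (adjusted p = 0.000664), and the kinase Map4k2 by log2 values of -0.07 at 2M, 0.94 at 4M and 1.16 at 6M (adjusted p = 0.000664). For Pllp, Ggh and Erbb3 the strains were within 0.3 log2 units at 2M and NOD.H-2b was lower at both later ages. For a pair of Esp family genes the gap at 2M was wider than later, with Esp1 at log2 values of -7.23 at 2M, -1.87 at 4M and -2.82 at 6M (adjusted p = 0.00464) and Esp31 at log2 values of -5.51 at 2M, -1.97 at 4M and -2.93 at 6M (adjusted p = 0.00599). The difference of Pllp between ages passed in all 25 alternative settings. Its strain difference in the 6 mice of 2M did not pass without BALB/c mouse 3 or without NOD.H-2b mouse 2 (adjusted p = 0.101 and 0.0752).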

How the data were processed

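The data were 1 table of raw counts per Ensembl gene, with 1 column for each of 18 male mice, of which the 6 of 2M and, in the last comparison, all 18 were used. Libraries were made from rRNA-depleted RNA and sequenced in paired-end mode. To obtain the deposited counts, the authors trimmed reads with cutadapt, used STAR to map to GRCm38 and HTSeq to count per gene on the ROSALIND platform. The release of the annotation, the setting for strand and the handling of reads that map to several places are not given in the sources used here, so that values of near-identical copies (Ly6, Scgb, Esp, Mup, Oas and immunoglobulin families), overlapping genes and antisense genes are uncertain. The normalized table deposited beside the counts was not used.

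Names were taken from GENCODE M21 for 54079 of 54232 identifiers. Depth lay between 56840654 and 63309172 counts per 2M library, and 25573 genes had no count in any 2M mouse. Genes kept by filterByExpr were normalized by TMM and tested with the quasi-likelihood test of edgeR 4.0.16 in R 4.3.3, strain against strain in the 6 mice of 2M. P-values were adjusted by Benjamini-Hochberg over all genes tested. A gene was called when the adjusted p was under 0.05 and the fold 2 or more, and 8199 genes had an unadjusted p under 0.05. The difference between ages was a contrast of 6 groups in 1 fit of 18 mice, called at the same adjusted p with no fold. Where a strain had at most 3 counts in each mouse, a fold was given only as a lower bound against 3 counts per library, and only where all its mice were at 0. These bounds cover counting error only. The scripts were tested on simulated data.

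The members and the 52 gene lists were chosen with earlier results of these data known, so that list counts are descriptions and were given no test. Genes were named by rule: the 10 largest increases and decreases whose average log2 CPM reached 3, predicted genes and pseudogenes left out, up to 4 called members of each list and direction, its member of highest level and its defining members, the 6 smallest p-values in each direction between ages, and the genes that the study's text names for its bulk data. Genes outside this rule were named for their role after their values were seen. Some genes are not reported here. No library was left out, and replicates of a strain, which are separate mice, differed by far more than sampling noise (chi-square per gene between 22.1 and 72). Promoter sequences are from RefSeq (GRCm38.p6).

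The alternatives tried were DESeq2 size factors and the Wald test of DESeq2 1.42.0, upper quartile normalization, a minimum of 10 counts in each mouse, no filter at all, glmTreat against a fold of 2, 1 fit of all 18 mice, scaling to the median of the epithelial structure genes, the replicate number as a block, 4M or 6M alone, and each mouse left out in turn. Leaving out 1 mouse of 2M leaves 2 in its strain.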

Additional observations from a re-analysis of the deposited data

Results flagged for a closer look

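For the results here, the strain difference at 2M (log2, NOD.H-2b over BALB/c) was tested against the mean of the differences at 4M and 6M by an interaction contrast in edgeR, and the values are the first less the second. The difference at 2M was above for 1120 genes and below for 1029.

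Among the genes above, the epithelial genes Krt18, Cdh1 and Epcam had values of 0.59, 0.75 and 0.56, the fate factor Tfap2b 0.83, and the receptor Erbb3 0.67. Ggt1, Pllp and Ggh had values of 1.5, 1.22 and 1.06, Cyp2f2 0.74 and Arpin 0.64. The immunoglobulin genes Igha and Jchain had values of 2.15 and 1.97, and the interferon-stimulated gene Rsad2 1.28. Igha and Jchain lost the call without BALB/c 2M mouse 1 or 2 or NOD.H-2b 2M mouse 3, and Rsad2 without BALB/c 2M mouse 3. Jchain also lost it without NOD.H-2b 2M mouse 2. Against 4M alone Igha, Jchain, Rsad2 and Tfap2b did not pass (adjusted p = 0.0923, 0.114, 0.0732 and 0.235).

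Among the genes below, the Esp family genes Esp1 and Esp31 had values of -4.88 and -3.06, the most negative of the genes named. Pecam1 was at -1.41, the small nucleolar RNA Snord17 at -1.28, Smc4 at -1.25, Map4k2 at -1.12, St8sia6 at -1.09 and Scgb1b2 at -0.79.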

How the results depend on the processing

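Of the 2070 upregulated and 647 downregulated genes at 2M, 1196 and 406 were called when at least 10 counts were required in every mouse, since fewer genes were tested, and 1265 and 309 when the fold of 2 was itself tested (glmTreat), a stricter call. The other settings gave 2036 to 2561 and 623 to 824, and leaving out 1 mouse gave 1919 to 2240 and 589 to 679. The counts between ages depended more on the setting. Against 1120 above and 1029 below, 4M alone gave 187 and 133, and 6M alone 1738 and 1345, and leaving out 1 mouse gave 555 to 1732 above and 482 to 1260 below. The Wald test of DESeq2 gave 1486 and 1448, no filter 993 and 829, and at least 10 counts in every mouse 1094 and 1213. The cause of these shifts was not tested.

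Same-numbered mice of the strains were at most weakly alike, and whether they shared a batch was not tested. The correlations of deviations between same-numbered mice were 0.06, 0.06 and 0.01, and 5 of 6 mice correlated best with their own number. With the replicate number as a block the counts were 2070, 635, 1167 and 972. The block ended the call for Ighd, Calr and Scgb2b7 (adjusted p = 0.0585, 0.0545 and 0.0508) and gave one for Bhlha15 (0.0194). Named genes at 2M were refitted under 10 settings (DESeq2 size factors, the Wald test, the epithelial median, the block and each mouse left out). They kept their side of the threshold in 2237 values, lost it in 74 and gained it in 19, and under 25 settings between ages 513 values kept it and 12 lost it. No value past the threshold in either setting changed sign, but genes that did not pass could, such as Bcl6 (-0.54 to 0.75) and Obp1a (-0.27 to 0.57). The count of higher B cell genes depended on 1 mouse, with 7 members higher in all mice and 18 without NOD.H-2b mouse 1, as did lymphoid chemokine and organiser genes (6 and 11). The B cell list had 11 tested members in all mice and more without that mouse. Members with few counts in BALB/c are the least precise at this depth.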

Other observations

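Vessel genes were mixed. Of 24 tested genes of endothelium and leukocyte adhesion 11 were upregulated, against 12.0% of all genes, and none downregulated. Their median log2 fold change was 0.77. Among vessel genes proper, Vwf, the clotting factor stored in endothelium, had 22.8, 23 and 22.7 CPM in BALB/c and 64.4, 59.6 and 56.8 CPM in NOD.H-2b (log2 fold change 1.4 ± 0.059, adjusted p = 1.36e-08). The groups did not overlap. Kdr, the main receptor for vascular endothelial growth factor, had 18.8, 19.1 and 23.3 CPM in BALB/c and 12.7, 12.6 and 14.3 CPM in NOD.H-2b (log2 fold change -0.63 ± 0.095, adjusted p = 0.000322), lower but under the fold of 2. Cdh5, the cadherin of endothelial junctions, had a log2 fold change of 0.06 (adjusted p = 0.669). The adhesion receptors of inflamed vessels and the integrins of leukocytes made up most of the others upregulated, such as Selp (log2 fold change 1.61 ± 0.29, adjusted p = 0.00107) and Itga4 (log2 fold change 2.79 ± 0.36, adjusted p = 0.00273).

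Genes for autoantigens of Sjögren's syndrome were mixed, with a median of 0.07. Of 12 tested, 3 were upregulated and 1 downregulated, against 12.0% and 3.76% of all genes. Trim21, which encodes the Ro52 antigen, had 4.15, 4.42 and 2.98 CPM in BALB/c and 7.26, 9 and 8.73 CPM in NOD.H-2b (log2 fold change 1.11 ± 0.15, adjusted p = 0.000168), each NOD.H-2b mouse above each BALB/c mouse. Ssb, which encodes the La antigen, had 44.2, 43.4 and 44.2 CPM in BALB/c and 47.3, 44.7 and 45 CPM in NOD.H-2b (log2 fold change 0.06 ± 0.049, adjusted p = 0.412), with NOD.H-2b levels close to those of BALB/c. Among genes near diabetes loci of the NOD strain 11 of 18 were upregulated and 1 downregulated, and most of these are leukocyte genes. Ptpn22, a phosphatase of lymphocytes, had 0.205, 0.297 and 0.342 CPM in BALB/c and 2.04, 6.34 and 4.04 CPM in NOD.H-2b (log2 fold change 3.86 ± 0.48, adjusted p = 0.000513), and Cd274, which encodes PD-L1, had 0.652, 0.315 and 0.342 CPM in BALB/c and 2.56, 5.59 and 3.67 CPM in NOD.H-2b (log2 fold change 3.18 ± 0.37, adjusted p = 0.000168). Ifih1, a sensor of double-stranded RNA, differed less (log2 fold change 0.42 ± 0.14, adjusted p = 0.0493). Ifih1 did not pass without BALB/c mouse 1 or 3 or without NOD.H-2b mouse 1, 2 or 3 or with DESeq2 size factors or with the epithelial median set to 0 (adjusted p = 0.14, 0.104, 0.083, 0.172, 0.139, 0.0521 and 0.064).

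Among clock genes, Ciart, a repressor of the clock, had 2.23, 2.57 and 4.35 CPM in BALB/c and 0.587, 1.27 and 1.09 CPM in NOD.H-2b (log2 fold change -1.63 ± 0.33, adjusted p = 0.00373). Of 8 tested nerve and Schwann cell genes Gabbr2, a subunit of the GABA-B receptor, stood farthest apart, with 0.0186, 0.105 and 0.0171 CPM in BALB/c and 3.98, 2.3 and 2.36 CPM in NOD.H-2b, and 3 were upregulated in all.

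Some abundant genes outside the lists, chosen after their values were seen, also differed. Dnase1, a secreted nuclease, had 150, 204 and 106 CPM in BALB/c and 2626, 2858 and 2565 CPM in NOD.H-2b (log2 fold change 4.13 ± 0.29, adjusted p = 0.000476), so that every NOD.H-2b mouse was above every BALB/c mouse. Pigr, the receptor that carries polymeric IgA across epithelium into secretions, had 135, 110 and 156 CPM in BALB/c and 756, 465 and 640 CPM in NOD.H-2b (log2 fold change 2.21 ± 0.25, adjusted p = 0.00226). Nupr1, a stress-induced chromatin protein, had 103, 133 and 106 CPM in BALB/c and 541, 510 and 563 CPM in NOD.H-2b (log2 fold change 2.24 ± 0.1, adjusted p = 1.28e-06). Aldh3a2, a fatty aldehyde dehydrogenase, had 350, 385 and 369 CPM in BALB/c and 1074, 998 and 1128 CPM in NOD.H-2b (log2 fold change 1.53 ± 0.059, adjusted p = 6.49e-09).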
